A study of Mus musculus with 15 samples.

Results

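The stomach lines itself with mucus, and 9 genes of that mucous barrier were followed across 15 bulk RNA sequencing libraries of mouse stomach: the mucins Muc1, Muc5ac and Muc6, the trefoil factors Tff1 and Tff2, the gastrokines Gkn1, Gkn2 and Gkn3, and A4gnt, an enzyme that finishes the sugars of gland mucin. They were taken by gene symbol, whatever their values, from a count table of 36144 genes. All 9 were found there, and all 9 were among the 16224 genes that passed the filter on low counts. There were 3 libraries of normal tissue. The other 12 were tumors, 3 each from antrum, corpus, and the boundaries of the greater and the lesser curvature at the cardia. Libraries are named here by site and replicate number. Every mouse, normal samples included, was a C57BL/6 animal of 7 to 8 weeks carrying the alleles Pou2f3-CreERT, Rb1fl/fl, Trp53fl/fl and LSL-MycT58A, and each received tamoxifen at 50 mg/kg, with tissue profiled 5 weeks later. CreERT is a tamoxifen-dependent recombinase, here driven from Pou2f3, the gene of the tuft cell regulator, so recombination starts in tuft-lineage cells. The Rb1 and Trp53 alleles are floxed, and the Myc allele is switched on by the recombinase. The normal tissue thus came from animals of the tumor genotype, and the stomach region it was cut from is not given in the labels. Replicates are labelled biological, with no word on whether they were separate animals, and the p-values below measure only the spread between these samples.

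Gastric mucus is built by 2 kinds of mucous cell. Surface or pit cells make the gel-forming mucin Muc5ac together with the small trefoil peptide Tff1 and the gastrokines Gkn1 and Gkn2, secreted proteins of the BRICHOS family. Mucous neck cells and pyloric gland cells make the gel-forming mucin Muc6 with the trefoil peptide Tff2 and the gastrokine Gkn3, and A4gnt, a glycosyltransferase of the Golgi, caps the glycans of their mucin with alpha-linked N-acetylglucosamine. Muc1 differs from the others in that it is a membrane-bound mucin of the apical cell surface. In the results below Muc1, Muc5ac, Tff1, Gkn1 and Gkn2 are called the 5 surface genes, and Muc6, Tff2, Gkn3 and A4gnt the 4 gland genes.

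Most members lie in 3 clusters, and each cluster holds genes of both kinds. On GRCm38 with the GENCODE M21 annotation, Gkn1 (chromosome 6, 87345650 to 87350942, minus strand), Gkn2 (87373357 to 87379497, plus strand) and Gkn3 (87383256 to 87388935, minus strand) span 43286 bases, and Gkn2 and Gkn3 are 3758 bases apart. Tff1 (chromosome 17, 31161395 to 31165277) and Tff2 (31141049 to 31144282), both on the minus strand, are 17112 bases apart with no coding gene between them. Muc6 (chromosome 7, 141633456 to 141655319, minus strand) and Muc5ac (141788972 to 141819231, plus strand) flank the intestinal mucin Muc2. Muc1 lies on chromosome 3 (89229057 to 89233381) and A4gnt on chromosome 9 (99612502 to 99622367). Of the 9, only Tff1 overlaps an annotated antisense gene, Gm15318. The sources used here do not say whether counting used strand, so reads of that pair may not be told apart.

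Promoter sequences are shown for the 3 neighbouring gastrokines and for 2 gland genes, since Gkn1 and Gkn2 moved together below while Gkn3 followed the gland genes. They are the 250 bases before the RefSeq start on GRCm38.p6, read 5′ to 3′ on the gene's own strand, with every match to 1 of 5 short motifs in capitals:
Gkn1, chr6:87350916-87351165, minus strand: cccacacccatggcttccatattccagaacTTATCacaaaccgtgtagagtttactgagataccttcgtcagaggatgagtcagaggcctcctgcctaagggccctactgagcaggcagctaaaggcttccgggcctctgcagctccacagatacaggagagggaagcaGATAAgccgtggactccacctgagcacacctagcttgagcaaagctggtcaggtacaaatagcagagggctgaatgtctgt
Gkn2, chr6:87373115-87373364, plus strand: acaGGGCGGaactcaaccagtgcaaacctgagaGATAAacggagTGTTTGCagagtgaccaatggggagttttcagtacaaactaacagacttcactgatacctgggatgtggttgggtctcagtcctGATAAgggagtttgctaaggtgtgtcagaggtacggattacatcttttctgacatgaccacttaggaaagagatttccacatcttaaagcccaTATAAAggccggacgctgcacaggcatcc
Gkn3, chr6:87388936-87389185, minus strand: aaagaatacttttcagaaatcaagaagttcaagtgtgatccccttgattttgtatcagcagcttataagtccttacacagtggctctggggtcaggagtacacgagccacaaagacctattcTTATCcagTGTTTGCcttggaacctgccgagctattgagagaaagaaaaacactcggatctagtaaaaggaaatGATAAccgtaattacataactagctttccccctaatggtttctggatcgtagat
Muc6, chr7:141655394-141655643, minus strand: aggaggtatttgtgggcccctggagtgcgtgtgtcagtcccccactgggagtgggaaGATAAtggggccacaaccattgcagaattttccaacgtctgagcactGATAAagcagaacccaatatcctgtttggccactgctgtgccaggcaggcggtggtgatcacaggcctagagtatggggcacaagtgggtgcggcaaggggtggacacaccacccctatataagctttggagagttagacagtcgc
A4gnt, chr9:99612252-99612501, plus strand: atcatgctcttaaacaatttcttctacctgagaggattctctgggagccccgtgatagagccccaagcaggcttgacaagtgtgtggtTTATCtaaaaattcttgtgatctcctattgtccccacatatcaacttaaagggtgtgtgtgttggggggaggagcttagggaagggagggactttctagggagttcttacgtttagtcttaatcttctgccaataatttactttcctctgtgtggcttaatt
The motifs were GATAA (bound by GATA factors), TGTTTNC (a forkhead core), CACGTG (the E-box of Myc and Max), TATAAA and GGGCGG, each searched on both strands. RefSeq promoters were at hand for 6 of the 9 genes, Muc1 being the other one, and for none of Muc5ac, Tff1 and Tff2. The RefSeq start of Muc6, at 141655393, lies outside its GENCODE gene, which ends at 141655319. Bases checked just after that start were in no GENCODE transcript of Muc6, while those of the other promoters were. The Muc6 window may thus not precede the start used in GENCODE. GATAA was present in all 5 promoters shown, with 2 matches in each except A4gnt, which has 1, and absent from that of Muc1. It is present in 22.6% of all 32851 promoters of that length. TGTTTNC was present in Gkn2 and Gkn3 (17.8% of all promoters), TATAAA (12.4%) and GGGCGG (32.7%) in Muc1 and Gkn2, and CACGTG in none of the 6 (6.02%). A match is a description of the letters and does not show that a factor binds there.

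These genes made up a large share of the RNA counted from stomach. Together they took 8.02% to 8.82% of all counts in normal libraries, and in tumors their share ran from 0.0174% to 7.40%. By TPM, the length-scaled abundance that allows levels of different genes to be compared, Gkn2 and Tff1 had the highest medians of the members. Gkn2 ranked first among all genes in antrum 2 and in corpus 3, and in the normals its level was 16236 TPM in library 1, 46446 TPM in library 2 and 59187 TPM in library 3. It exceeded Gkn1 in 15 of 15 libraries and Tff1 in 12 of 15, so the order of Gkn2 and Tff1 did not hold throughout. Tff1 had a median of 41196 TPM in normals and 20448 TPM in tumors, and Gkn1 23841 and 12319 TPM. Below them, in the order of the normals' medians, were Tff2 (5051 TPM), Gkn3 (1365 TPM), Muc5ac (504 TPM), Muc6 (347 TPM), Muc1 (329.8 TPM) and A4gnt (63.6 TPM). Tff2 nevertheless exceeded both Gkn2 and Tff1 in normal 1 (44067 TPM) and in greater curvature 1. Muc5ac, Muc6 and Muc1 did not hold 1 order across the normals, since Muc6 reached 6184 TPM in normal 1.

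Library totals ran from 7957165 counts in lesser curvature 2 to 21564972 in greater curvature 2, and 1 count was worth 0.0478 to 0.112 CPM, a count scaled to a library of 1e+06 after TMM. Libraries differed widely in the level of epithelial markers. The summed level of 8 pan-epithelial markers (Epcam, Cdh1, 3 keratins and 3 claudins) was 3801 to 11860 CPM in the normals. In tumors it was 221 CPM in antrum 1 and 167 CPM in lesser curvature 1 against 1756 to 10658 CPM in the other 10, with none of the 8 markers at 0 in any library. The normals also differed: 9 squamous forestomach markers summed to 5828 CPM in normal 2 and to 2.13 and 1.76 CPM in normals 1 and 3, and gastrin (Gast), the antral hormone, was at 0, 37.1 and 604 CPM in normals 1, 2 and 3. The part of these differences in the results below was not tested beyond leaving out each library. In bulk tissue, fewer cells of a type and less RNA per cell cannot be told apart.

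**Figure D1:**
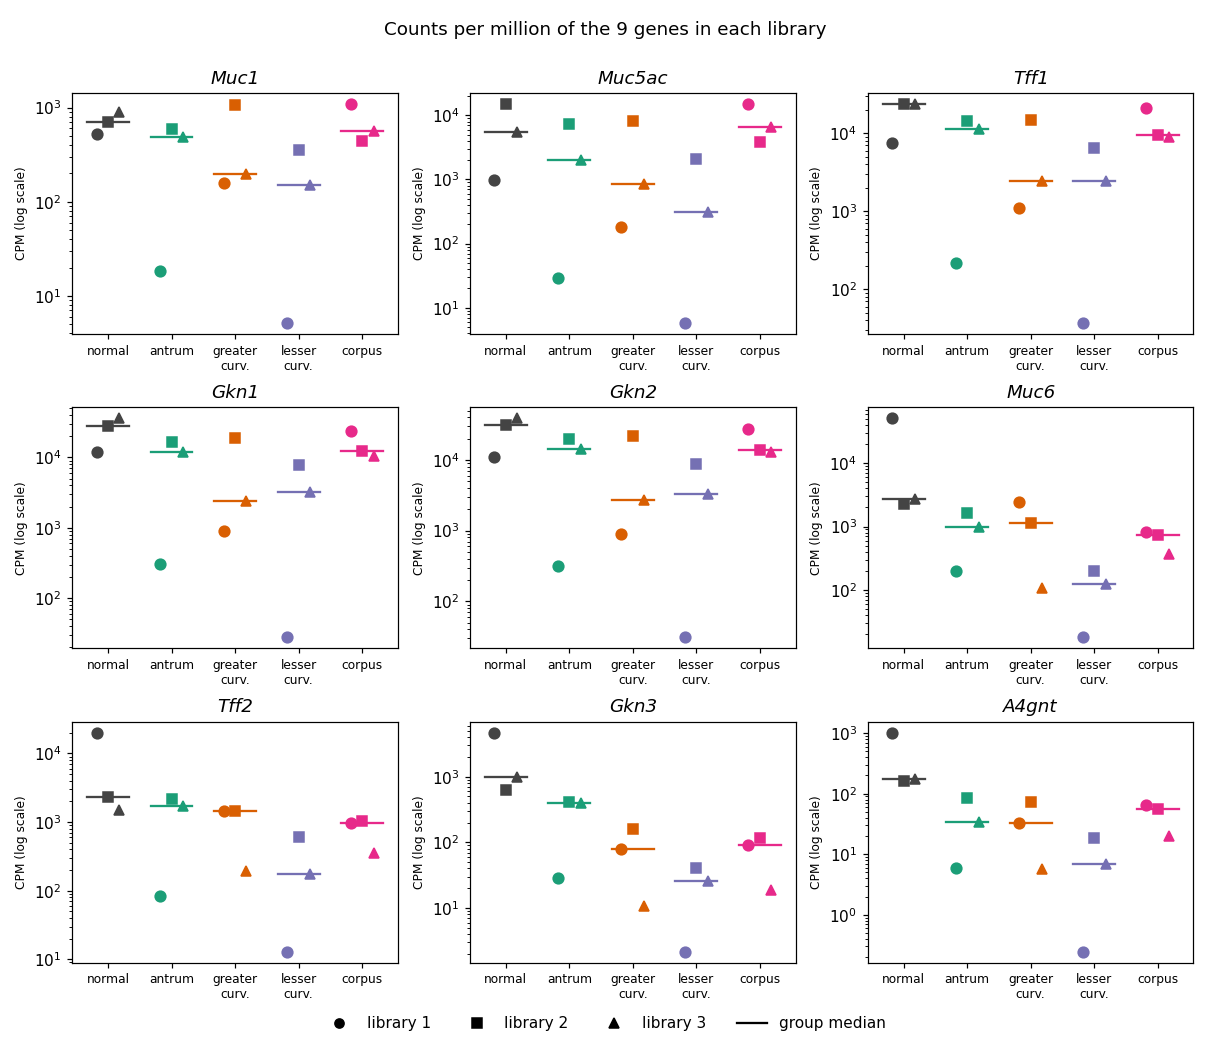
Level of each of the 9 genes in each of the 15 libraries, in CPM on a log axis, by group. Symbols give the replicate number and bars the group median; the 4 gland genes (Muc6, Tff2, Gkn3, A4gnt) peak in normal 1, and lesser curvature 1 is the lowest library for all 9 genes.

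All 4 gland genes fell in the tumors when all libraries were used. With the tumors of all sites set against normal tissue in edgeR's quasi-likelihood test, 4 of the 9 members were lower at an adjusted p under 0.05, all of them gland genes, and none was higher, where 15.7% of all genes tested were lower and 16.2% higher. The median log2 change was -4.38 over the 4 gland genes and -1.66 over the 9 members, against -0.04 over all genes tested. Without normal 1 the gland genes changed less and 1 member, Gkn3, was called lower. The 15.7% is from the fit of all libraries, and the share of all genes called lower without normal 1 is not given here. Smooth muscle was lower too: all 6 of its markers fell, and their sum was 4028 to 5749.7 CPM in normals and 142 to 1040.4 CPM in tumors. The part of this in the results was not tested.

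Muc6, the gland mucin, was at 51297, 2238 and 2718 CPM in normals 1, 2 and 3. In tumors it ran from 17.9 to 2429 CPM with a median of 554 CPM, and 11 of 12 lay below all normals, greater curvature 1 being the exception. Normal 1 stood far above every other library. The log2 change was -5.12 (SE 0.89, adjusted p = 0.00321), or 34.8-fold lower. Without normal 1 it was -2.20 and no longer called (adjusted p = 0.077).

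Gkn3, the gland gastrokine, was at 4695, 635 and 996 CPM in the normals and at 2.16 to 408 CPM in the tumors, with a median of 59.7 CPM. All 12 tumors lay below all 3 normals, as was the case for 2 of the 9 members and for 6.65% of all genes tested. The highest tumors were antrum 3 (397 CPM) and antrum 2 (408 CPM). The log2 change was -4.74 (SE 0.84, adjusted p = 0.0035), or 26.7-fold lower. Gkn3 was the member whose call held without normal 1 (-3.37, adjusted p = 0.0293).

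A4gnt, the enzyme of gland mucin glycans, was at 1022, 164 and 172 CPM in the normals and at 0.246 to 84.2 CPM in the tumors, with a median of 26.5 CPM. It was the other member with all 12 tumors below all 3 normals. The lowest value, in lesser curvature 1, came from 5 counts. The log2 change was -4.02 (SE 0.86, adjusted p = 0.0068), or 16.2-fold lower, and -2.59 without normal 1 (adjusted p = 0.0705).

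Tff2, the gland trefoil peptide, was at 20163, 2286 and 1522 CPM in the normals. In tumors it ran from 12.9 to 2199 CPM with a median of 780.2 CPM, and 10 of 12 lay below all normals. The exceptions were antrum 2 and antrum 3, which lay within the normal range. The log2 change was -3.46 (SE 0.92, adjusted p = 0.0164), or 11.01-fold lower. It was -1.39 without normal 1 (adjusted p = 0.318), and limma on the TPM table did not call it (-2.65, adjusted p = 0.094).

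None of the 5 surface genes passed the pooled test, and their levels spread widely among tumors. Gkn1 was at 11759, 27427 and 36044 CPM in the normals and at 27.8 to 23582 CPM in the tumors, with 7 of 12 below all normals. Its log2 change was -1.66 (SE 1.08, adjusted p = 0.239). Gkn2 was at 10980, 30947 and 38992 CPM in the normals and at 31 to 27505 CPM in the tumors, with a change of -1.55 (SE 1.11, adjusted p = 0.281). For both, normal 1 was the lowest normal, the reverse of what the gland genes showed.

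Tff1, the surface trefoil peptide, was at 7536, 23764 and 23954 CPM in the normals and at 37 to 21421 CPM in the tumors. 6 of 12 tumors lay below all normals and none above, and the log2 change was -1.44 (SE 1.06, adjusted p = 0.292). Muc5ac, the surface mucin, had the widest fold range of the members among tumors, 2617-fold. It was at 971, 14847 and 5565 CPM in the normals and at 5.8 to 15172 CPM in the tumors. The log2 change of Muc5ac was -1.32 (SE 1.33, adjusted p = 0.44). Muc1, the membrane mucin, was at 524, 696 and 889 CPM in the normals and at 5.16 to 1100 CPM in the tumors. Its change was -0.89 (SE 0.92, adjusted p = 0.455), with 8 tumors below and 2 above all normals. With standard errors near 1 on the log2 scale, the falls fitted for the surface genes could not be told from no change. Whether the gland genes changed more than the surface genes was not tested.

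**Figure D2:**
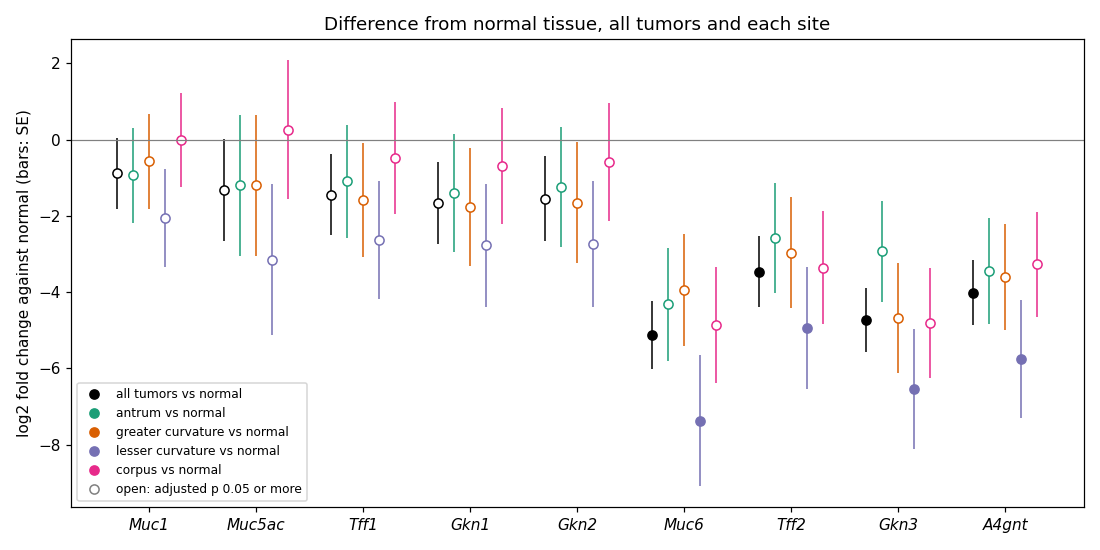
Fitted log2 fold change against normal tissue for each gene, for all tumors and for each site, with its standard error. Filled points have an adjusted p under 0.05: these are the 4 gland genes in all tumors and in the lesser curvature, and the surface genes have open points throughout.

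By site, the calls lay in the lesser curvature. The 4 site comparisons share the same normals. The lesser curvature tumors also had squamous forestomach marker sums of 402, 2059.9 and 1090.5 CPM, against at most 161 CPM in any other tumor, and the part of this in the calls was not tested. In lesser curvature tumors 4 of 9 members, the same gland genes, were lower and none higher, against 15.3% and 18.2% of all genes tested. Muc6 was at 17.9, 200 and 122 CPM there, 165-fold lower than normal (log2 -7.37, SE 1.72, adjusted p = 0.0107). That fold includes normal 1, at 51297 CPM against 2238 and 2718 CPM in normals 2 and 3. With a library left out the change of Muc6 lay between -8.06 and -4.45 and was called in 15 of 15 fits. Gkn3 was at 2.16, 40.5 and 25.4 CPM (log2 -6.54, SE 1.57, adjusted p = 0.012). A4gnt was at 0.246, 18.4 and 6.83 CPM (log2 -5.76, SE 1.55, adjusted p = 0.0179), a call lost without lesser curvature 3 (adjusted p = 0.0674). With a library left out the change lay between -7.26 and -5.17 for Gkn3 and between -6.99 and -4.33 for A4gnt. Tff2 was at 12.9, 598 and 174 CPM (log2 -4.93, SE 1.60, adjusted p = 0.035), a call lost without normal 1 (0.135), lesser curvature 1 (0.0905) or lesser curvature 3 (0.111) and with the replicate number as a block (0.0505), the compared groups only (0.0691) or limma on unfiltered TPM (0.0538). Leaving out lesser curvature 3 thus left 2 of the 4 calls. For 8 of the 9 members, all but Muc5ac, the 3 lesser curvature tumors lay below all normals, where 27.3% of all genes did.

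In the other sites edgeR called no member in either direction. In antrum tumors, where 5.08% of all genes were lower and 9.59% higher, 3 members had an unadjusted p under 0.05 (Muc6, Gkn3 and A4gnt), as did 14.5% of all genes in that direction, and DESeq2 called those 3 and 11.2% of all genes lower. The same 3 had all antrum tumors below all normals, as did 18.8% of all genes. In these tumors Gkn3 was at 28.5, 408 and 397 CPM (log2 -2.92, SE 1.32, adjusted p = 0.139). In greater curvature tumors, where 2.76% of all genes were lower and 6.5% higher, the same 3 members had an unadjusted p under 0.05 (13.3% of all genes in that direction) and DESeq2 called them and 8.65% of all genes lower. All tumors lay below all normals there for Tff2, Gkn3 and A4gnt and for 14.7% of all genes. There Gkn3 was at 78.9, 157 and 10.6 CPM (log2 -4.68, SE 1.43, adjusted p = 0.0589), with a call in edgeR when greater curvature 2 (0.0427) or antrum 1 (0.0438) was left out. In corpus tumors, where 1.19% of all genes were lower and 2.35% higher, the 4 gland genes had an unadjusted p under 0.05 (9.82% of all genes in that direction) and DESeq2 called all 4 and 5.67% of all genes lower. All corpus tumors lay below all normals for these 4 and for 13.4% of all genes. Muc6 was at 831, 736 and 373 CPM there, below all normals (log2 -4.86, SE 1.53, adjusted p = 0.0904).

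The surface genes of corpus tumors lay mostly within the range of normal tissue. Muc5ac was at 15172, 3882 and 6522 CPM in the corpus, within or above the range of the normals, and its log2 change was 0.26 (SE 1.83, adjusted p = 0.946). Muc1 had a change of 0.00 (SE 1.23). Both values fell below 0 in some settings given in the closing section. Gkn1 was at 23582, 12112 and 10606 CPM (log2 -0.70, SE 1.52, adjusted p = 0.807), a 2.22-fold range within the site. In antrum tumors the range of Gkn1 was 53.8-fold (302 to 16262 CPM), and in lesser curvature tumors 279-fold (27.8 to 7751 CPM). Antrum 1 and lesser curvature 1, the libraries at the low ends, were also those with the lowest pan-epithelial sums.

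The difference among the 4 tumor sites did not pass for any member. An F test in edgeR gave adjusted p from 0.891 to 0.919, the smallest unadjusted p being 0.0909 for Gkn3, and 0 of 9 members had an unadjusted p under 0.05, as 5.84% of all genes did. The edgeR test called 0 of 16224 genes and DESeq2 164, none of them a member. The deeper values of the lesser curvature are therefore not shown to differ from those of the other sites.

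Within a library, the surface genes Gkn1, Gkn2 and Tff1 kept close proportions, while ratios of a gland to a surface gene varied more widely. The TPM ratio of Gkn2 to Gkn1 ran only from 1.62 to 2.12 over the 15 libraries, a 1.31-fold range, while Gkn1 itself varied 849-fold among tumors by CPM. Tff1 to Gkn1 ran from 1.29 to 2.67. Other ratios within a kind were looser: A4gnt to Muc6 varied 6.36-fold, Muc5ac to Gkn1 7.80-fold, and Muc1 to Muc5ac 25-fold, from 0.247 to 6.17. Gkn3 to Gkn1, neighbours in the same cluster, ran from 0.00274 in corpus 3 to 0.624 in normal 1, a 228-fold range. Tff2 to Tff1 ran from 0.0506 in corpus 3 to 3.41 in normal 1, and Muc6 to Muc5ac from 0.0732 in corpus 1 to 72.3 in normal 1.

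The libraries with a high gland-to-surface ratio carried the same replicate number. Muc6 exceeded Muc5ac in normal 1 (72.3), antrum 1 (9.57), greater curvature 1 (18.3) and lesser curvature 1 (4.12), and lay between 0.0732 and 0.699 times Muc5ac in the other 11 libraries, corpus 1 included. The same 4 libraries had the highest Tff2 to Tff1 ratios (3.41, 0.488, 1.67 and 0.445). They also had the highest Gkn3 to Gkn1 ratios, from 0.122 in lesser curvature 1 to 0.624 in normal 1. What the replicate number stands for is not given in the labels, and its part in these ratios was not tested.

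**Figure D3:**
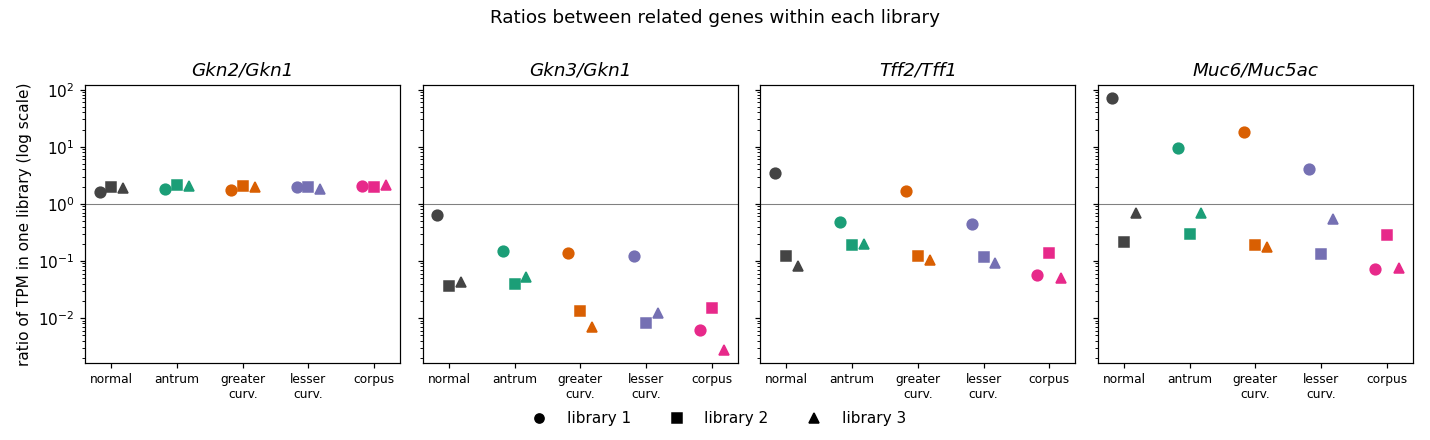
TPM ratio of 4 gene pairs within each library, on a shared log axis, by group, with symbols for the replicate number. Gkn2/Gkn1 is nearly flat (1.62 to 2.12), while the 3 ratios of a gland gene to a surface gene are highest in library 1 of the normal, antrum, greater curvature and lesser curvature groups.

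A division by kind appeared when whole profiles were compared. Profiles are log2 CPM centered on the gene's own mean, and the distance between a pair is the root mean square of their difference over the 15 libraries, in log2 units. All 15 libraries share their scaling, and genes of 1 cell type rise and fall with its share of the tissue. Among them are normal 1, antrum 1, greater curvature 1 and lesser curvature 1, which had the highest gland-to-surface ratios. Muc6 to Muc5ac was 72.3 in normal 1, for instance. Distances without these libraries were not computed, so their part in the division was not tested. Distances were 0.10 to 1.33 among the 10 pairs of surface genes and 0.67 to 1.04 among the 6 pairs of gland genes. The 20 mixed pairs were at 1.44 to 2.92. Over the 12 tumors alone the mixed pairs ran up to 2.56 and overlapped with the surface pairs (0.09 to 1.28): Muc1 lay closer to A4gnt and Tff2 than to Muc5ac. The closest pair was Gkn1 and Gkn2 and the most distant Muc5ac and Muc6, which lie in the same mucin cluster.

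**Figure D4:**
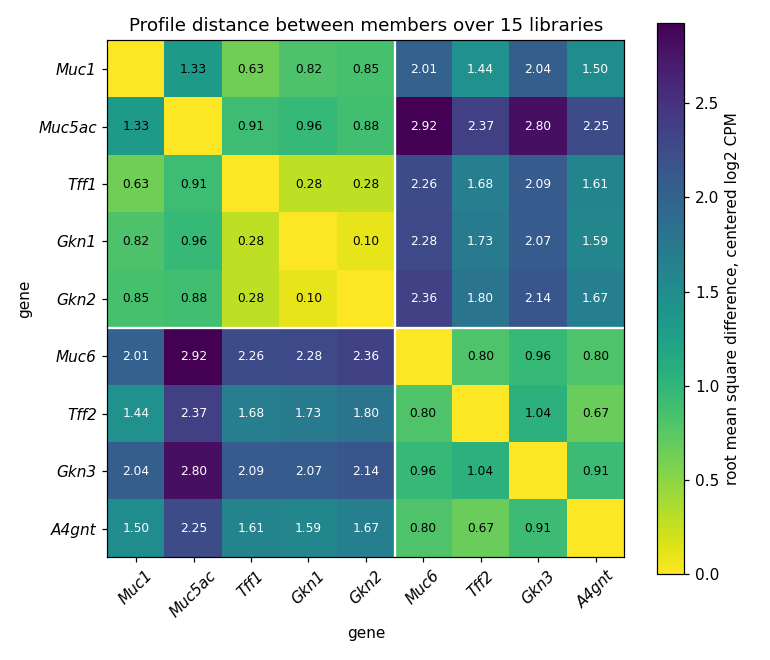
Distance between the centered log2 CPM profiles of each pair of members over 15 libraries, in log2 units, with surface genes before and gland genes after the white lines. The 20 mixed pairs (1.44 to 2.92) exceed all pairs within a kind (0.10 to 1.33).

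Outside the members, the nearest profiles of the gland genes were those of Agr2, Spdef and Creb3l4, all on the list of mucous secretory machinery. Among 10354 other genes with a mean of at least 10 CPM, the 2 nearest to Muc6 were Spdef, an ETS transcription factor of mucus-secreting cells (1.05), and Creb3l4, a transcription factor tethered to the endoplasmic reticulum (1.12). Agr2, a disulfide isomerase needed for mucin folding, was nearest to Tff2 (0.59), Gkn3 (1.21) and A4gnt (0.63). Spdef was second for Tff2 (0.65) and A4gnt (0.67), and Creb3l4 for Gkn3 (1.24). For the surface genes the 2 nearest were Sptssb, a subunit of the enzyme that starts sphingolipid synthesis (0.25), and Capn8, a stomach calpain (0.28), for Tff1. Psca, a surface antigen of stomach epithelium, was nearest to both Gkn1 (0.38) and Gkn2 (0.36), followed by Bcas1 (0.39) and Sptssb (0.39). Muc1 was nearest to the transporter Slc44a4 (0.27) and to Gata5, a GATA factor of the gut (0.30). Muc5ac stood apart from these, with the interferon-induced enzymes Oas2 (0.60) and Oas1g (0.65) as its nearest profiles.

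Genes that build and secrete mucus were then read from 3 lists, alongside 2 lists of other mucous cell markers. Of 12 genes of the mucous secretory machinery 6 fell and none rose in all tumors against normal (edgeR), with a median log2 change of -1.62. Of all genes tested 15.7% were lower and 16.2% higher. The mean level of Spdef was 203 CPM ± 203 (SD, n = 3) in normal tissue against 23.1 CPM ± 17.99 (SD, n = 12) in tumors. Its change was -3.29 (SE 0.77, adjusted p = 0.00969), with all 12 tumors below all normals, as for 6.65% of all genes tested. Creb3l1, an activator of secretory genes, changed by -2.66 (adjusted p = 0.011) and Creb3l4 by -2.99 (adjusted p = 0.0186). The other 3 were Agr2 (-2.98), Rab3d, a GTPase of secretory granules (-1.52), and Xbp1, the unfolded protein response factor (-1.08), named after their values were seen. Without normal 1 none of the 12 passed, while the median was -1.67, and leaving out another library gave 4 to 7. On log2 of TPM plus 1 limma called 3 lower and 1 higher. The shares of all genes called in these other fits are not given here.

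Of 19 tested enzymes of mucin O-glycosylation 2 fell and 1 rose, where 15.7% and 16.2% of all genes did, with a median of -1.31. The number that fell was 9 without greater curvature 2, 6 without lesser curvature 2 and 4 without antrum 1 or antrum 2, and 1 without normal 3, corpus 2 or corpus 3. The shares of all genes above are from the fit of all libraries. Those of the fits with a library left out are not given here, so these counts are not set against them. C1galt1c1, the chaperone that the core O-glycan enzyme needs, had a mean of 60.2 CPM ± 11.2 (SD, n = 3) in normal tissue against 23.5 CPM ± 11.96 (SD, n = 12) in tumors, a change of -1.42 (SE 0.36, adjusted p = 0.0127). Galnt5, one of the enzymes that add the first sugar, changed by -2.24 (adjusted p = 0.0298). Gcnt4, a branching enzyme, rose by 1.44 (adjusted p = 0.0173). All 12 tumors lay above all normals for it, and the share of all genes with that pattern was not computed. Without normal 1 none of the 19 passed, and C1galt1c1 had an adjusted p of 0.0614, Galnt5 of 0.214 and Gcnt4 of 0.0687. The calls of Galnt5 (0.0546) and Gcnt4 (0.052) were also lost without normal 3, and that of Galnt5 without corpus 2 (0.051) or corpus 3 (0.0517) and with limma on the TPM table (0.0548).

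Among 8 tested other mucins and the intestinal trefoil factor Tff3, 2 fell and none rose, where 15.7% and 16.2% of all genes tested did. The list median was -0.08 and lay between -0.51 and 1.37 over the settings. Muc15 changed by -4.81 (adjusted p = 0.0159), but this rested on normal 2: without it the value was 4.21 (adjusted p = 0.268). Muc16 changed by -2.25 (adjusted p = 0.0421) at a mean of only 1.27 CPM in normals, a call lost without any one of 10 of the 15 libraries. Muc2, the intestinal mucin between Muc6 and Muc5ac, had a mean of 1.32 CPM ± 1.07 (SD, n = 3) in normal tissue against 0.78 CPM ± 0.459 (SD, n = 12) for tumors, and a change of -0.78 (adjusted p = 0.27).

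Of 8 other surface mucous genes none passed in edgeR without a block, and DESeq2 called 1 of them lower, Capn9. The median was -1.53, near the -1.44 of the 5 surface members. Capn9, a stomach calpain, had a change of -2.41 (adjusted p = 0.0663), which passed without greater curvature 2 (0.0172) or lesser curvature 2 (0.0429) and with the replicate number as a block (-2.58, 0.027). Ctse, the protease cathepsin E, had a change of -1.65 (adjusted p = 0.186) and Vsig1, an adhesion protein of gastric epithelium, one of -1.58 (adjusted p = 0.202). Of 5 other genes of gland mucous cells none passed either, with a median of 0.32, and DESeq2 called 1 lower and 1 higher. The share of all genes that DESeq2 called in all tumors is not given here for either list. Sox9, a transcription factor of gland progenitors, had a change of -1.74 (adjusted p = 0.0677), which passed without antrum 1 (0.0498) or greater curvature 2 (0.0217). The water channel Aqp5 had a change of -1.85 (adjusted p = 0.0858, or 0.049 without greater curvature 2) and Wfdc2 one of 1.67 (adjusted p = 0.127).

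Summed markers of other gland cells were also lower in most tumors, though not in the same order as the gland genes. Summed levels of 8 markers listed as parietal, Gif included, were 5829.9 to 10409.9 CPM in normals and 89 to 8127 CPM in tumors. Gif, also on the chief cell list, was at 1748, 1332 and 1120 CPM in normals 1, 2 and 3. Those of 6 chief cell markers were 62309 to 137648 CPM in normals, highest in normal 1, and 7.42 to 81858 CPM in tumors. Most of the chief sum was Pgc, at 125472 CPM in normal 1 and 77368 CPM in corpus 1. In edgeR Pga5 (-1.88, adjusted p = 0.164) and Bhlha15 (-0.55, adjusted p = 0.403) were not called in the pooled tumors. In corpus 1 both sums lay within the normal range (8127 and 81858 CPM), while its 4 gland genes lay below all normals. Greater curvature 1, the highest tumor for Muc6, had a chief sum of 1859 CPM against 44952 CPM in greater curvature 2. In edgeR 5 of 8 parietal and 3 of 5 tested chief cell markers were lower in the pooled tumors, with none higher. Of all genes tested 15.7% were lower and 16.2% higher. Gif is counted in both lists and is among the calls of each (adjusted p = 0.0464). In corpus tumors none of either list passed, where 1.19% of all genes were lower and 2.35% higher. The part of gland cell content in the fall of Muc6, Tff2, Gkn3 and A4gnt was not tested.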

How the data were processed

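Total RNA of 15 mouse stomach samples was sequenced as paired reads, and groups were taken from the sample titles. Per the submitters' processing notes, bcl2fastq 2.19, kallisto 0.44.0, sleuth, DESeq2 and GRCm38.p6 were used, with no role or order given. One deposited table gives whole-number estimated counts for each gene. A second, whose name says FPKM, has columns that each total 1e+06 and was taken as TPM values made by the authors. The sources used here do not name the annotation or how transcripts were summed.

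The model was edgeR 4.0.16 (R 4.3.3) with filterByExpr (minimum count 10), TMM scaling, and 1 robust quasi-likelihood model of all 15 samples by group. SE is that of the log2 fold change, adjusted p-values are by Benjamini and Hochberg over all 16224 genes, and 0.05 is the threshold for a call. Adjusted p-values printed without a tool come from edgeR. Log2 CPM used a prior count of 2. The fit was checked on simulated counts. The alternatives were DESeq2 size factors, DESeq2 1.42.0, no low-count filter, a replicate block, the compared groups only, limma 3.58.1 on log2 of TPM plus 1 or 0.1 (TPM of 1 in 3 samples, or unfiltered), and leaving out libraries. All 9 members were named whatever their values, with the 2 nearest profiles of each and, from each mucous list, the 3 genes with the smallest p. Predicted genes and pseudogenes were passed over as nearest profiles. The members and lists were chosen with earlier results of these data known. For the 9 members counting error is small at these depths, except for A4gnt in lesser curvature 1. It is larger for Muc2, Muc15 and Muc16, with tumor means of 0.78, 0.45 and 0.47 CPM.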

Additional observations from a re-analysis of the deposited data

How the results depend on the processing

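The count of members called lower in all tumors was 4 in the main analysis and 1 to 4 when a library was left out, the low value being without normal 1. Apart from the DESeq2 counts by site, counts of the other settings are given without the share of all genes called in the same fit. A change in such a count may thus follow the number of calls over all genes, which was not tested. In the lesser curvature it was 4, and 2 to 4 with a library left out, the low value being without lesser curvature 3. In the antrum, greater curvature and corpus it was 0 in edgeR and 3, 3 and 4 by DESeq2, which called 11.2%, 8.65% and 5.67% of all genes lower there. In the greater curvature limma on log2 TPM called 1 with a pseudocount of 1 and 1 with 0.1, and leaving out a library gave 0 to 1. On the TPM table the median log2 change of all genes was 0.43, against -0.04 from the counts. No setting called a member among sites. The corpus change of Muc1 turned from 0.00 to -0.01 with DESeq2 size factors and with DESeq2 (-0.0136 each), to -0.0253 with the compared groups only, -0.17 without normal 1, -0.47 without corpus 1 and -0.00394 without normal 2, and with a library left out it lay between -0.47 and 0.25. That of Muc5ac turned to -0.26 without normal 1 and -0.45 without corpus 1, in a range of -0.45 to 1.38. In all tumors without normal 2, Muc2 turned to 0.10, in a range of -1.15 to 0.10, and Muc15 to 4.21, in a range of -5.58 to 4.21. The cause of these turns was not tested. With the replicate number as a block, the corpus changes of Tff1, Gkn1 and Gkn2 turned to 0.56, 0.21 and 0.48, and the members called stayed at 4 in all tumors and went from 4 to 3 in the lesser curvature (Tff2). Same-numbered samples were not treated as pairs, since the labels do not tie them and correlations of their deviations ran from -0.57 to 0.69 over 30 pairs. As a hint from the data, not the design, the median was 0.168 against -0.0654 over 60 pairs of different number, 17 and 20 of these exceeded 0.1, and 10 of 15 samples matched best with their own number. In all tumors the block also ended the calls of Muc15 (0.0968) and Muc16 (0.0509). The number of O-glycan enzymes that fell was 2 in the main analysis, 5 by DESeq2, 6 with the block and 0 to 1 by limma, and of secretory machinery genes 6, 6, 6 and 1 to 3. Without greater curvature 2 and corpus 1 together 4 members were called in all tumors.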

Other observations

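Each member was divided by the summed pan-epithelial markers of its own library, a comparison added after the data were seen. On this scale the number of tumors below all 3 normals was higher for Tff1, Gkn1 and Gkn2 and lower for the other 6 members. Tff1 then lay below all 3 normals in 11 of 12 tumors, against 6 by CPM, with 198 to 263 CPM per 100 CPM of epithelial markers in normals and 22.1 to 201 in tumors. Gkn1 lay below all normals in 10 tumors, against 7, and Gkn2 in 10, against 6. Muc1 went from 8 tumors to 1. Gkn3 and A4gnt went from 12 tumors to 10 and 11, antrum 1 being their highest tumor on this scale. Muc6 went from 11 to 9, Tff2 from 10 to 7 and Muc5ac from 5 to 4. No member had all 12 tumors below all 3 normals on this scale. These are counts with no test, and they hold for this sum of markers only. The markers in the sum differ in profile. In normals 1, 2 and 3 Krt8 was at 1188, 5053 and 3729 CPM, and Epcam at 275, 282 and 264 CPM. Scaling to a single marker was not tested.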
